A study of Homo sapiens with 4 samples.

Results

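The 7 genes described here belong to the RAS to ERK cascade and were measured in RD cells, a fusion-negative rhabdomyosarcoma line: HRAS, NRAS, ARAF, BRAF, MAP2K1, MAP2K2 and MAPK3. They were found by gene symbol and make up 7 of the 18375 genes of the deposited table. The series holds 2 libraries of vincristine-resistant RD cells and 2 libraries of untreated parental RD cells, all from poly(A)-enriched RNA and all with the genotype label WT. Vincristine binds tubulin and blocks the mitotic spindle. Resistance was raised from a first dose of 1 to 1.5 nM, which killed 80 to 90% of the cells, through steps of 10 to 20% over 9 to 12 months, until the half-maximal inhibitory concentration had risen at least 100-fold. The labels do not say whether the resistant cells are 1 clone, or whether they were in the drug when RNA was taken.

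RAS proteins are small GTPases that are active when bound to GTP. Active RAS recruits RAF kinases to the membrane, RAF phosphorylates the MEK kinases, and MEK phosphorylates the ERK kinases, which act on transcription factors and on growth. In fusion-negative rhabdomyosarcoma this cascade is often mutated, and the RD line is known to carry an activating NRAS mutation. The title of the study names MEK, and the comparison here asks how the transcripts of each tier of the cascade differed between resistant and parental cells. Other isoforms within these tiers were not analysed here, while RAS-related GTPases and other MAP kinase modules were analysed as lists of related genes. Activity and phosphorylation were not measured in these data.

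The libraries held 58861281 to 67690557 recovered reads. The counts of replicates varied beyond sampling noise: the chi-square per gene was 4.00 between the resistant libraries and 1.61 between the parental libraries. Muscle lineage markers were present in all libraries: 8 of 10 listed markers were tested and 7 rose, with a median log2 fold change of 0.72. Of all genes tested, 32.7% rose. MYOD1, the myogenic master regulator, did not pass (limma adjusted p = 0.153). It was at 15949 ± 1041 normalized counts in the resistant libraries and 16588 ± 491 in the parental libraries (all SDs are over n = 2 libraries per group). Markers of other cells also moved with resistance. The summed level of 6 of 8 epithelial markers was 14959 to 15131 in resistant and 5150 to 5171 in parental libraries, mostly KRT18, with 13883 ± 193 in resistant and 4427 ± 27.1 in parental cells. Of these 6 markers 4 rose, CLDN4 fell and EPCAM did not pass. CLDN4 had 222 ± 21.8 in resistant and 346 ± 0.57 in parental cells. EPCAM had 68.6 ± 26.9 in resistant and 58.8 ± 1.16 in parental cells (limma adjusted p = 0.554). The sum of 3 of 8 endothelial markers was 2441 to 2503 in resistant and 923 to 973 in parental libraries, where TEK and TIE1 rose and CLDN5 fell. TEK had 1710 ± 27.4 normalized counts in resistant and 199 ± 15.7 in parental cells. CLDN5, which had the highest normalized count of the 3 in parental cells, had 261 ± 12.1 in resistant and 619 ± 39.9 in parental cells. The sum of 2 of 8 blood cell markers was 41.1 to 57.3 in resistant and 49.7 to 53.2 in parental libraries, where CD14, at 42.1 ± 10.6 in resistant and 29.4 ± 0.81 in parental cells, did not pass (limma adjusted p = 0.126). CD68 fell, with 6.49 and 7.64 in the resistant libraries, against 23.2 and 20.9 in the parental libraries. The other listed markers were not analysed here, and the part of these markers in the results was not tested.

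Of the 7 genes, 6 fell in resistant cells and 1, ARAF, did not pass the test. Across all genes tested, 34.2% fell and 32.7% rose, so a fall in itself was common. The median log2 fold change of resistant over parental cells was -0.43 over the 7 genes and 0.00 over all genes. The libraries of the groups did not overlap for any of the 7 genes, 6 being lower and 1 higher in resistant cells, against 41.1% of all genes that lay lower and 41% that lay higher without overlap. Each gene was covered by 1376 to 38836 reads per library. In bulk samples, fewer cells of a type and less RNA per cell cannot be told apart.

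**Figure D1:**
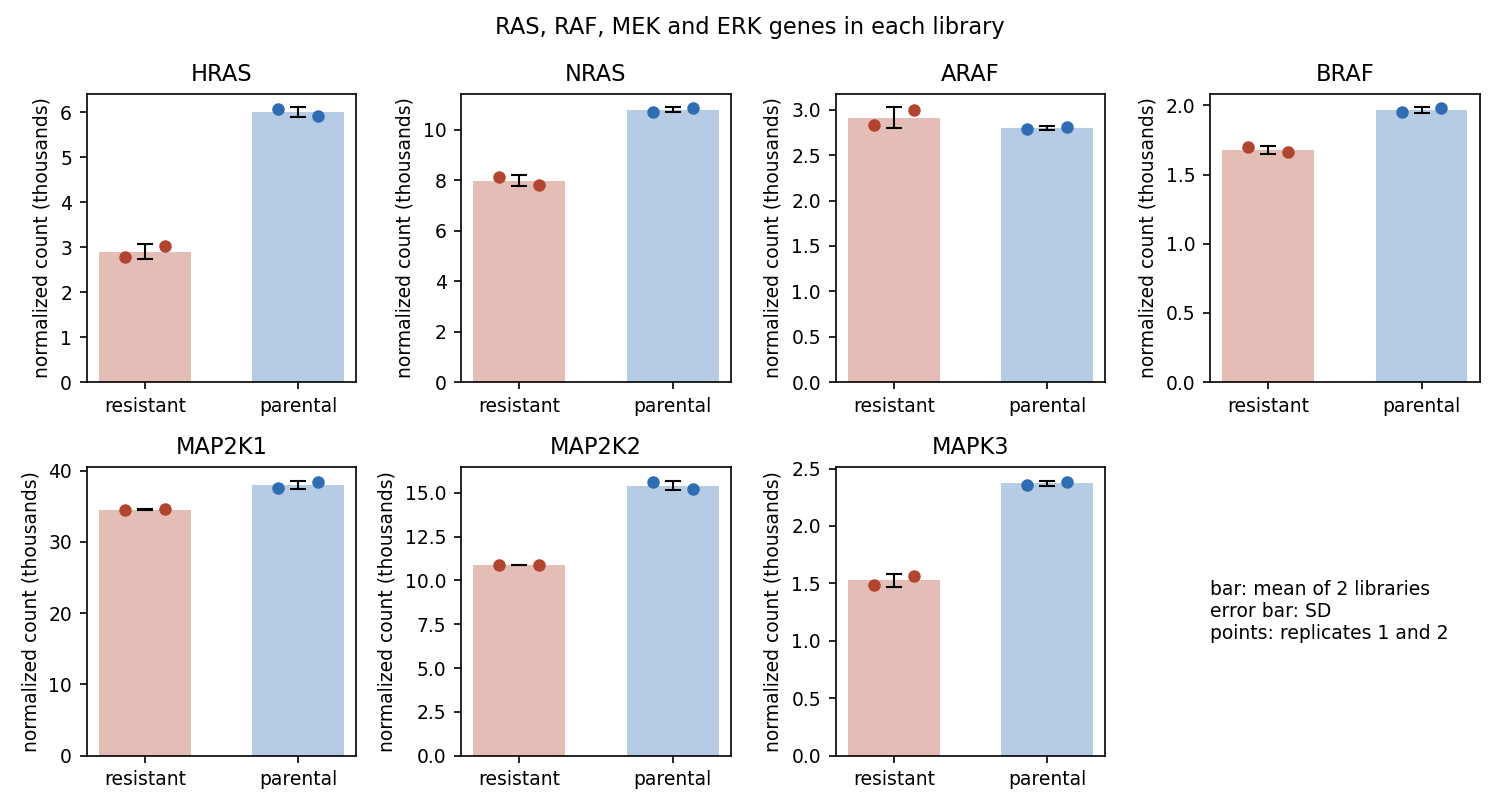
Normalized counts of the 7 genes in each library, resistant cells left of parental cells, 1 panel per gene, with points for libraries, bars for means and error bars for the SD. HRAS averages 2898 in resistant and 5995 in parental libraries, whereas the ARAF points lie close together in both groups.

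HRAS showed the largest change of the 7. HRAS encodes a RAS GTPase that reaches the plasma membrane after farnesylation and palmitoylation. The gene (ENSG00000174775) lies on the minus strand of chromosome 11 from 532242 to 537287 in GRCh38. Its normalized counts were 2776 and 3021 in the resistant libraries, against 6074 and 5917 in the parental libraries. Both resistant libraries lay far below both parental libraries, and the groups did not overlap. The means were 2898 ± 174 in resistant and 5995 ± 111 in parental cells, with a log2 fold change of -1.05 (SE 0.04, limma adjusted p = 3.89e-18), so the level fell by 51.7%. Of all genes tested, 6.21% had a log2 fold change as low or lower.

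NRAS, the RAS gene that RD cells carry in mutant form, fell less. The gene (ENSG00000213281) lies on the minus strand of chromosome 1 from 114704469 to 114716894. It had 8139 and 7820 normalized counts in the resistant libraries, against 10708 and 10852 in the parental libraries. The 4 libraries separated by group, with both resistant values below both parental values. The means were 7980 ± 226 in resistant and 10780 ± 102 in parental cells, with a log2 fold change of -0.43 (SE 0.03, limma adjusted p = 4.06e-12). The counts do not tell mutant from reference transcripts.

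HRAS and NRAS have coding sequences of the same length, 567 bases. They differ most at the 3′ end of the coding sequence, which encodes the hypervariable region and the membrane anchor. The last 75 coding bases, from 493 to 567, are shown because this stretch tells the transcripts of the pair apart. They were read from GENCODE 29 on GRCh38, 5′ to 3′ in the sense direction, and capitals mark the bases that differ.
HRAS: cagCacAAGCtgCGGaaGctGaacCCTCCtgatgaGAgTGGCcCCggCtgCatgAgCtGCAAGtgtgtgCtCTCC
NRAS: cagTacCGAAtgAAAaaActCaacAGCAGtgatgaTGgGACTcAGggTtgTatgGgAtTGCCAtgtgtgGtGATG
Identity was 50.7% over these 75 bases, with 37 mismatches, and 76.4% over the 492 coding bases before them. Across whole transcripts the longest run shared by HRAS and NRAS was 14 bases, that shared by ARAF and BRAF 21 bases, and that shared by MAP2K2 and MAP2K1 38 bases. No window of 50 bases of one member of a pair occurred in the other.

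The RAF kinases did not move together. ARAF, the RAF gene on the X chromosome, from 47561100 to 47571920 on the plus strand (ENSG00000078061), had 2833 and 2994 normalized counts in the resistant libraries, against 2784 and 2811 in the parental libraries. The resistant values lay above the parental ones by a margin smaller than the gap between the resistant libraries. The means were 2914 ± 114 in resistant and 2798 ± 19.1 in parental cells, with a log2 fold change of 0.06 (SE 0.04, limma adjusted p = 0.236), which did not pass. It passed as higher when a trend of fold change on GC content and length was removed (0.12, limma adjusted p = 0.0129), and when resistant replicate 1 was left out (0.10, limma adjusted p = 0.0255). Leaving out resistant replicate 2 gave 0.02 (limma adjusted p = 0.718).

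BRAF encodes the RAF kinase with the highest basal activity. The gene (ENSG00000157764) lies on the minus strand of chromosome 7 from 140719327 to 140924928. It had 1701 and 1660 normalized counts in the resistant libraries, against 1950 and 1980 in the parental libraries. The groups did not overlap, and the libraries within each group were close. The means were 1680 ± 29.1 in resistant and 1965 ± 21.4 in parental cells, with a log2 fold change of -0.23 (SE 0.05, limma adjusted p = 1.54e-04). NDUFB2, a subunit gene of respiratory complex I, shares 5.29% of the exonic bases of BRAF on the opposite strand, and it had 4942 and 5068 normalized counts in resistant and 5706 and 5726 in parental libraries. Whether the counting used strand is not given in the sources used here, so the reads of the pair may not be told apart.

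The MEK genes encode the dual-specificity kinases that phosphorylate ERK. MAP2K1, the gene of MEK1 (ENSG00000169032), lies on the plus strand of chromosome 15 from 66386817 to 66492312. It had 34488 and 34570 normalized counts in the resistant libraries, against 37547 and 38410 in the parental libraries. Both resistant values lay below both parental values, and the change was the smallest in proportion among the 6 genes that fell. Its level fell by 9.08%, a log2 fold change of -0.14 (SE 0.03, limma adjusted p = 7.00e-05). An antisense transcript, AC116913.1, covers 11.5% of its exonic bases and had at most 24.8 normalized counts in any library, and SNAPC5, on the opposite strand, covers 5.75% and had at most 431. The pseudogene MAP2K1P1 had at most 18.4.

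MAP2K2, the gene of MEK2 (ENSG00000126934), lies on the minus strand of chromosome 19 from 4090321 to 4124129. It had 10883 and 10884 normalized counts in the resistant libraries, against 15601 and 15214 in the parental libraries. The resistant pair was nearly identical and well below both parental libraries. So close a match of 2 libraries does not measure precision, since across genes the resistant libraries varied beyond sampling noise. The means were 10883 ± 1.23 in resistant and 15407 ± 273 in parental cells, with a log2 fold change of -0.50 (SE 0.03, limma adjusted p = 4.18e-14), so the level fell by 29.4%.

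MAPK3, the gene of ERK1, was the only ERK gene described, so no share within the ERK tier could be formed. The gene (ENSG00000102882) lies on the minus strand of chromosome 16 from 30114105 to 30123506. It had 1489 and 1568 normalized counts in the resistant libraries, against 2355 and 2387 in the parental libraries. Both resistant libraries were well below both parental ones. The means were 1529 ± 56.1 in resistant and 2371 ± 22.5 in parental cells, with a log2 fold change of -0.63 (SE 0.05, limma adjusted p = 4.55e-12), so the level fell by 35.5%.

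The 6 falls were called again by edgeR's quasi-likelihood test on the recovered reads, which called 34.3% of all genes lower and 33.2% higher, and by DESeq2, which called 29.6% lower and 27.1% higher. HRAS, NRAS, MAP2K2 and MAPK3 also fell when a change above 1.2-fold was required in limma's treat test, under which 18.6% of all genes fell and 18.4% rose. The same 4 genes fell in edgeR with the dispersion fixed at 0.01, a spread larger than the one between these libraries, under which 21.2% of all genes fell and 22.2% rose. BRAF (edgeR adjusted p = 0.222) and MAP2K1 (edgeR adjusted p = 0.479) did not pass that test. In the authors' deposited table the log2 fold changes were -1.05 for HRAS, -0.434 for NRAS, 0.059 for ARAF, -0.226 for BRAF, -0.137 for MAP2K1, -0.502 for MAP2K2 and -0.633 for MAPK3. The authors' deposited table likewise has ARAF as the one with an adjusted p above 0.05, at 0.395.

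**Figure D2:**
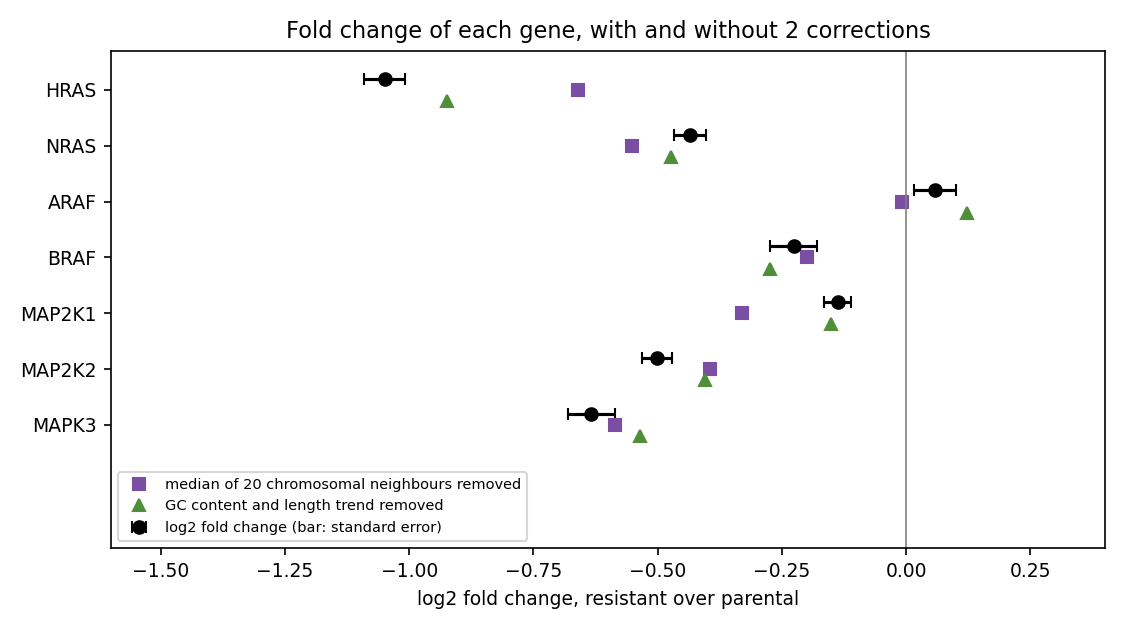
Log2 fold change of resistant over parental cells for the 7 genes, with bars for the standard error, beside the values after removal of the median of 20 chromosomal neighbours (squares) or of the GC and length trend (triangles). HRAS lies lowest in all 3, at -1.05, -0.66 and -0.92, and ARAF lies above 0 except for its square at -0.01.

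Levels per kilobase of the longest annotated transcript were compared between genes. In resistant cells the order was MAP2K1 (10126 normalized counts per kilobase), MAP2K2 (3720), HRAS (2351), NRAS (1794), ARAF (1164), MAPK3 (595) and BRAF (175). In parental cells the order was the same, at 11137, 5266, 4862, 2423, 1117, 924 and 205 normalized counts per kilobase. No neighbours in this order overlapped between their libraries within a group. MAP2K1 was above 98.4% of genes in both groups, while BRAF was above 43.8% in resistant and 46.2% in parental cells. The order depended on the length used. Per kilobase of total exonic length HRAS ranked 4 in resistant and 2 in parental cells, and per kilobase of coding sequence NRAS ranked 2 in both groups and HRAS 4.

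**Figure D3:**
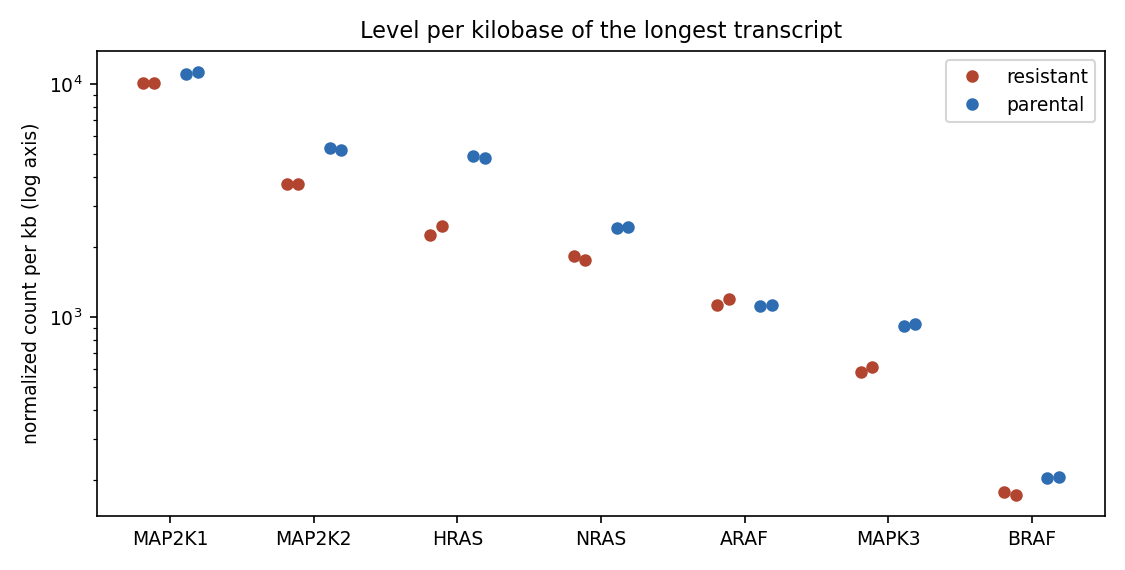
Normalized counts per kilobase of the longest transcript on a log axis for the 7 genes, resistant and parental libraries as separate points. MAP2K1 lies highest, at means of 10126 in resistant and 11137 in parental cells, and BRAF lowest, at 175 in resistant and 205 in parental cells, with the resistant and parental points of HRAS furthest apart.

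Isoform shares were taken within each named pair, per kilobase of the longest transcript, and leave out other family members. HRAS made up 55.2 and 58.2% of the RAS pair in the resistant libraries, against 67.2 and 66.3% in the parental libraries. The share of HRAS was thus lower in both resistant libraries, at 56.7 ± 2.16% in resistant and 66.7 ± 0.62% in parental cells, a difference of -10.0 percentage points. ARAF made up 86.4 and 87.3% of the RAF pair in resistant and 84.5 and 84.4% in parental libraries, a difference of 2.40 points. MAP2K2 made up 26.9 and 26.8% of the MEK pair in resistant and 32.6 and 31.6% in parental libraries, a difference of -5.24 points. In none of the 3 pairs did the groups overlap.

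The size of a share depended on the length used, and its direction did not. Per kilobase of coding sequence HRAS made up 26.6% of the RAS pair in resistant and 35.7% in parental cells, ARAF 69.7% of the RAF pair in resistant and 65.4% in parental cells, and MAP2K2 23.6% of the MEK pair in resistant and 28.5% in parental cells. Per kilobase of total exonic length the share of HRAS was 46.6% in resistant and 57.2% in parental cells, that of ARAF 92.0% in resistant and 90.4% in parental cells, and that of MAP2K2 18.5% in resistant and 22.6% in parental cells.

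**Figure D4:**
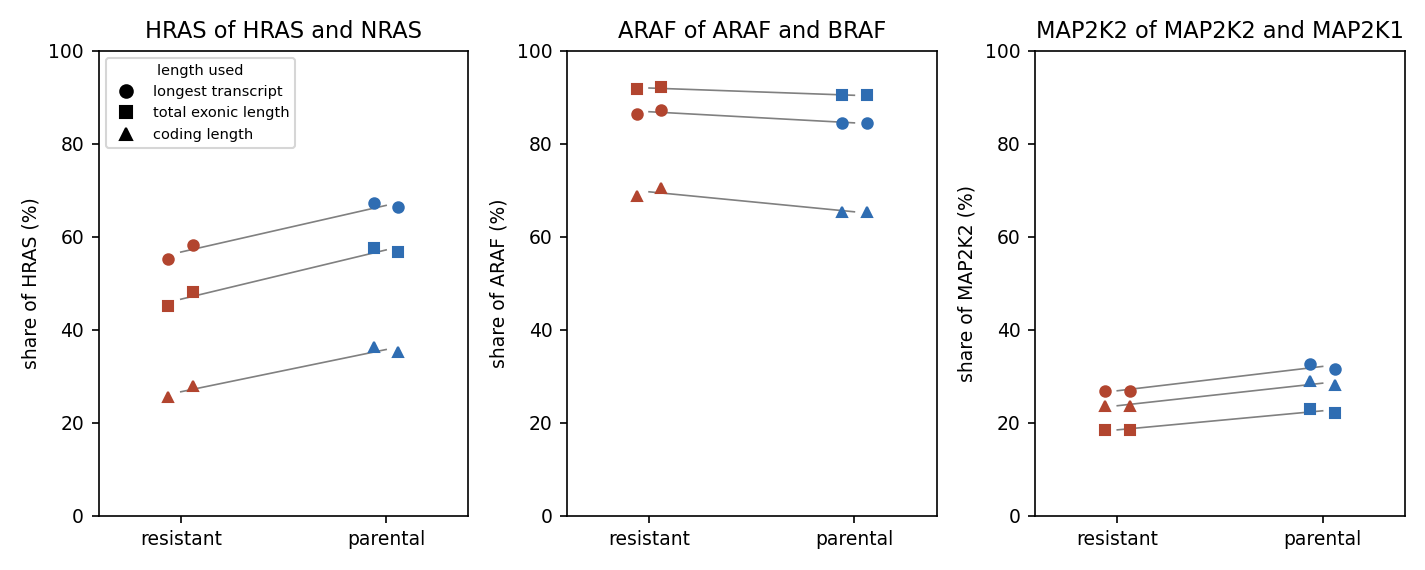
Share of HRAS, ARAF and MAP2K2 within its pair in each library, in percent, resistant left of parental, with marker shapes for the length used and lines joining group means. The HRAS and MAP2K2 shares are lower in resistant cells and the ARAF share is higher, under each of the 3 lengths.

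Length cancels in the log2 ratio of a pair. The HRAS to NRAS ratio was -1.55 and -1.37 in the resistant libraries, against -0.82 and -0.87 in the parental libraries, a difference of -0.62. For ARAF to BRAF the difference was 0.28, and for MAP2K2 to MAP2K1 it was -0.36. The groups separated in each pair, but the two-sided exact permutation test over 4 libraries gave p = 0.333 for each of the 3 ratios, which is the smallest p it allows and is also the value after Benjamini-Hochberg adjustment over the 3.

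Summed over a pair, per kilobase of the longest transcript, the RAS genes had 4081 and 4208 normalized counts per kilobase in the resistant libraries, against 7333 and 7238 in the parental libraries, a change of -43.1%. The MEK pair had 13833 and 13858 in resistant and 16343 and 16464 in parental libraries, a change of -15.6%. The RAF pair had 1309 and 1369 in resistant and 1316 and 1330 in parental libraries, and here the groups overlapped. The exact permutation p was 0.333 for the RAS and MEK sums, the smallest possible, and 1 for the RAF sum. Per kilobase of coding sequence the RAF sum was lower in resistant cells, at 2289 ± 50.4 against 2343 ± 19.3 in parental cells, without overlap (exact permutation p = 0.333).

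The genes lie on 7 chromosomes, and the genes around some of them moved as well. Among the 20 tested genes nearest to HRAS, 10 fell and 4 rose, with a median log2 fold change of -0.39. Both adjacent genes fell, with log2 fold changes of -0.73 for RNH1, a ribonuclease inhibitor, and -0.63 for LRRC56. Relative to the neighbour median HRAS was at -0.66, NRAS at -0.55, MAPK3 at -0.59, MAP2K2 at -0.39, MAP2K1 at -0.33, BRAF at -0.20 and ARAF at -0.01. The neighbours of MAP2K1 had a median of 0.19 and those of NRAS 0.12, so these genes stood further below their surroundings than below the whole table. The HRAS to NRAS difference was -0.11 once the neighbour medians were removed (exact permutation p = 0.667). The MAP2K2 to MAP2K1 difference was then -0.06 and the ARAF to BRAF difference 0.19 (exact permutation p = 0.333 for each, the smallest possible). The part of the neighbourhood in these differences was not tested.

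GC content of the transcript varied widely among the 7 genes. It was 65.8% in HRAS, 61.4% in MAPK3, 60.9% in MAP2K2, 58.9% in ARAF, 50.4% in MAP2K1, 40.0% in BRAF and 38.4% in NRAS, against a median of 48.7% over all genes. The 3 genes richest in GC had the 3 largest falls. ARAF, the next richest, did not pass, and NRAS, the poorest, fell by 0.43 on the log2 scale. The part of GC content in these changes was not tested. With the trend on GC content and length removed, HRAS was at -0.92, MAPK3 at -0.54, NRAS at -0.47, MAP2K2 at -0.40, BRAF at -0.27 and MAP2K1 at -0.15. ARAF was then at 0.12 and passed as higher (limma adjusted p = 0.0129).

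The promoters of HRAS and MAPK3, which had the 2 largest falls, and of ARAF, which did not pass, are printed here. RefSeq promoters on GRCh38.p14, from 250 bases before to 50 bases after the gene start, were found for all 7 genes. They are given 5′ to 3′ on the strand of the gene: HRAS at chr11:535527-535826 on the minus strand, MAPK3 at chr16:30123171-30123470 on the minus strand and ARAF at chrX:47560955-47561254 on the plus strand. The HRAS and MAPK3 windows lie inside the spans that GENCODE 29 gives for these genes. Capitals mark matches to the GC box GGGCGG on either strand, where CCGCCC is its reverse complement.
HRAS: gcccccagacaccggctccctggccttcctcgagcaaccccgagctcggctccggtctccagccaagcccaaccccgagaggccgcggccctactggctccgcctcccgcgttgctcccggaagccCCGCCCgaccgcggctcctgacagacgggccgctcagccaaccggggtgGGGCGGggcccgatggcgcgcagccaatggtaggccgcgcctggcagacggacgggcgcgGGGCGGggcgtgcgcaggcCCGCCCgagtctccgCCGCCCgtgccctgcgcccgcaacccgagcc
MAPK3: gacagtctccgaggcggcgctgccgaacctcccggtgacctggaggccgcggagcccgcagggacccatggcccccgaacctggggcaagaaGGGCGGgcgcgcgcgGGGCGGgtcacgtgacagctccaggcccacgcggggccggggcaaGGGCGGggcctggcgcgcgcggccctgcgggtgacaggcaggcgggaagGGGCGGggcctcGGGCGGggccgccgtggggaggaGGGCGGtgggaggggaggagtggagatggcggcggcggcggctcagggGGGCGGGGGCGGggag
ARAF: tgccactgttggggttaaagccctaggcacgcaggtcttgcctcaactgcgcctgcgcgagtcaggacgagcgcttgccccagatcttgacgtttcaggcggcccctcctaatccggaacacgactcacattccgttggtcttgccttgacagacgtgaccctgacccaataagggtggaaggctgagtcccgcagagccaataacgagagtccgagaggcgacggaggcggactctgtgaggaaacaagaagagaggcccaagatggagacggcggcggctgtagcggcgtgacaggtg
The GC box, the core letters of the binding motif of SP1 and related factors, had 8 matches in MAPK3, 5 in HRAS, 3 each in NRAS and MAP2K1, 2 in MAP2K2, and 0 in ARAF and BRAF. Of 27305 RefSeq promoters of the same length, 44.6% hold at least 1 match and 9.13% hold 4 or more. The motif CCAAT or its reverse complement ATTGG had 2 matches each in ARAF and BRAF and 1 each in HRAS and MAP2K1, and 35.7% of promoters hold it. The ETS core CCGGAA or TTCCGG had 2 matches in NRAS and 1 each in HRAS and ARAF (17.6% of promoters), and TATAAA or TTTATA had none in the 7 (12% of promoters). Matches of different motifs did not overlap in these 7 windows. GC content of the promoter was 80.7% in MAPK3, 78% in HRAS, 73.7% in MAP2K2, 72% in MAP2K1, 63% in BRAF, 60.3% in ARAF and 57.3% in NRAS, with a median of 58.3% over all promoters. The part of promoter sequence in the changes of these genes was not tested.

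The genes that load, unload and connect RAS were taken from lists of the pathway without the 7 genes. These lists were chosen with earlier results of these data known, so their counts describe the lists and are no independent test of the pathway. Of 167 tested pathway genes, 88 fell (52.7%), 43 rose (25.7%) and 36 did not pass, with a median log2 fold change of -0.13. Over all genes 34.2% fell and 32.7% rose, and the count of each list is to be read against these shares: several lists lay near them, such as 6 falls among 17 ERK effectors and 7 rises among 21 RAS-related GTPases. The genes named from each list were called ones with the largest change among those that averaged 100 or more in the higher group, and unless a p is given each had a limma adjusted p of at most 1.30e-04.

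**Figure D5:**
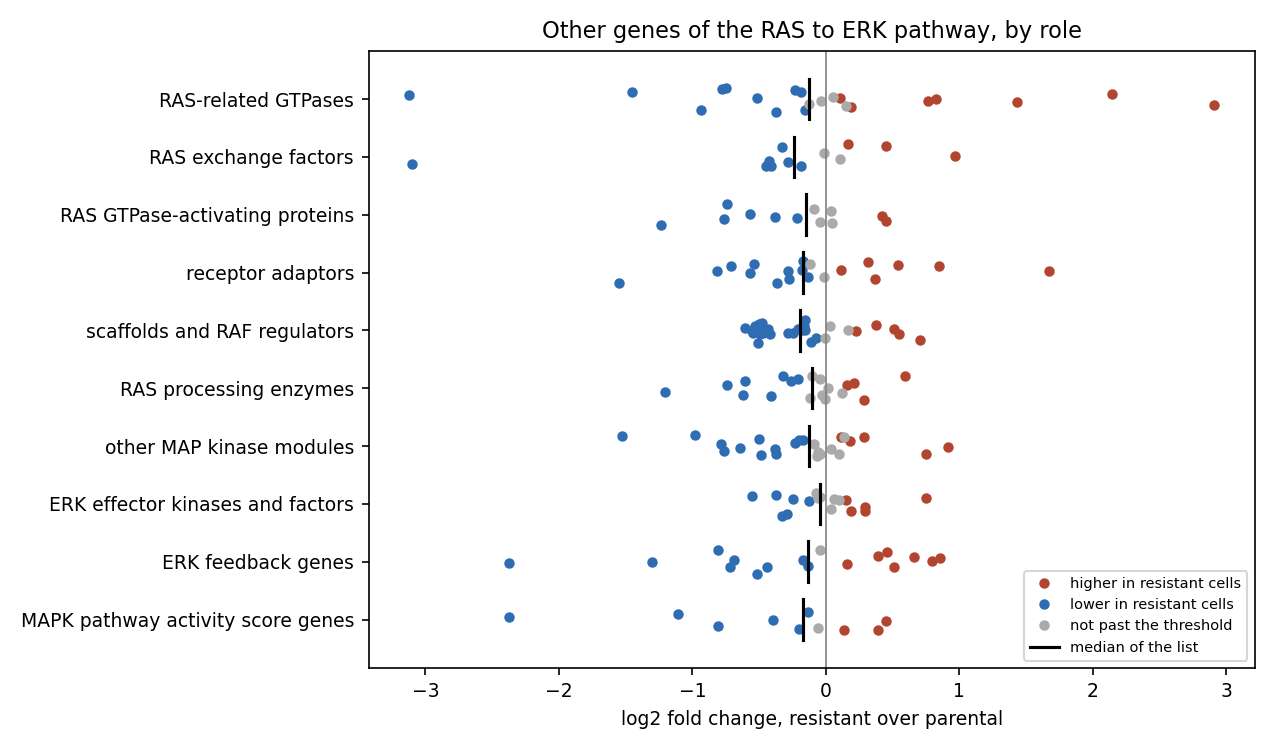
Log2 fold change of resistant over parental cells for each tested gene of 10 pathway lists, with 1 line of points per list and the list median marked. The 10 list medians lie between -0.23 and -0.04, and the points run from DIRAS2 at -3.12 to RASD1 at 2.91.

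Among upstream genes, adaptors and exchange factors fell more often than they rose. Of 19 receptor adaptors, 11 fell and 6 rose (median -0.17). GRB2, the adaptor that brings the exchange factor SOS to receptors, had 5968 ± 117 normalized counts in resistant and 17493 ± 176 in parental cells, with a log2 fold change of -1.55 (SE 0.03). The 20 genes nearest to GRB2 had a median of -1.11, and relative to it GRB2 was at -0.44. CBLB, a ubiquitin ligase that acts on receptors, was at -0.81 and the adaptor SHC4 at -0.71, while the adaptor SHC3 rose by 1.67, to 134 ± 10.4 in resistant cells, against 42.3 ± 13.3 in parental cells.

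Of 12 exchange factors, which load RAS, RAP or RAL proteins with GTP, 7 fell and 3 rose (median -0.23). The 7 include factors that act on other GTPases, such as RAPGEF1 on RAP, and RALGDS and RGL2 on RAL. RASGRP3, a diacylglycerol-responsive exchange factor, had 82.8 ± 3.75 normalized counts in resistant and 719 ± 21.8 in parental cells, with a log2 fold change of -3.10 (SE 0.11). SOS1 fell to 3412 ± 43.3 in resistant cells, against a parental level of 4644 ± 57.6 (log2 fold change -0.44). RASGRF2, a calcium-regulated exchange factor, rose by 0.45, and was at 0.27 relative to its neighbours. RASGRP2 was at -0.42 (limma adjusted p = 0.0277), and its call was lost in 9 of 15 alternatives, at adjusted p-values up to 0.359. Among these were DESeq2 (adjusted p = 0.165), the fits without either parental replicate (limma adjusted p = 0.111 and 0.0743) and the fit without resistant library 2 (limma adjusted p = 0.157).

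Of 12 GTPase-activating proteins, which switch RAS or RAP proteins off, 6 fell and 2 rose (median -0.15), but the list also holds RASGRF2, an exchange factor. Without it 6 of 11 fell and 1, NF1, rose. RASA3 fell to 2601 ± 112 in resistant cells, against a parental level of 6123 ± 79.7 (log2 fold change -1.24, SE 0.04), and was at -0.38 relative to its neighbours, whose median was -0.85. RAP1GAP was at -0.76, SIPA1L1, also a RAP GTPase-activating protein, at -0.74 and RASAL2 at -0.57. An antisense transcript shares 19.1% of the exonic bases of SIPA1L1.

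Of 21 RAS-related GTPases, 10 fell and 7 rose (median -0.13). DIRAS2 had 15.8 ± 2.12 normalized counts in resistant and 145 ± 7.02 in parental cells, with a log2 fold change of -3.12 (SE 0.23). RASD1, a glucocorticoid-inducible GTPase, had 546 ± 22.5 in resistant and 71.5 ± 1.36 in parental cells, with a log2 fold change of 2.91 (SE 0.12). RASD2, its close relative, rose by 2.15. RAP2A was at -1.46, and at -0.62 relative to its neighbours.

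Of 28 scaffolds and RAF regulators, 20 fell and 5 rose (median -0.19). LZTR1, a substrate adaptor for the degradation of RAS-family proteins, was at -0.60 and CNKSR3, a scaffold-related protein, at -0.55, or -0.31 relative to its neighbours. A processed transcript on the same strand shares 34.7% of the exonic bases of LZTR1, so its count is uncertain. CNKSR2, a scaffold of the cascade, rose by 0.71 and PPP1CC, a catalytic subunit of protein phosphatase 1, which acts on RAF, by 0.55, or 0.23 relative to its neighbours. The 6 YWHA genes of the list encode 14-3-3 proteins, which bind phosphorylated RAF, and were chosen as a group after their values were seen. Against 34.2% of all genes tested, all 6 fell, with log2 fold changes of -0.55 to -0.15. The most abundant of the 6, YWHAE, had 49646 ± 499 normalized counts in resistant and 72504 ± 41.9 in parental cells. Its neighbours had a median of -0.57, and relative to them YWHAE did not pass (0.02, limma adjusted p = 0.489), while the other 5 were still lower.

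Of 19 enzymes that process RAS, 8 fell and 4 rose (median -0.10). ZDHHC9, which palmitoylates HRAS and NRAS, fell to 2120 ± 76.6 in resistant cells, against a parental level of 3224 ± 5.09 (log2 fold change -0.61, SE 0.04). ZDHHC14, another palmitoyltransferase, was at -1.20, and LYPLA2, a thioesterase that removes palmitate, at -0.62. FNTB, the beta subunit of farnesyltransferase, was at -0.74, but the readthrough gene CHURC1-FNTB shares 42.1% of its exonic bases, so its count is uncertain.

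Beside the ERK module, 12 of 24 genes of other MAP kinase modules fell and 5 rose (median -0.13). MAP3K3, a kinase upstream of several modules, fell to 2743 ± 82.6 in resistant cells, against a parental level of 7926 ± 118 (log2 fold change -1.53, SE 0.04), and was at -0.51 relative to neighbours with a median of -1.02. MAP2K3 and MAP2K6, which activate p38, were at -0.76 and -0.79. The neighbours of MAP2K6 had a median of -1.50, and relative to them it was higher, at 0.72 (limma adjusted p = 2.89e-08). That p takes the neighbour median as known and leaves out the spread of the neighbours. MAPK8, the gene of JNK1, rose by 0.75, and no longer passed relative to its neighbours (0.10, limma adjusted p = 0.0750).

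Downstream of ERK the directions were mixed. Of 17 effector kinases and transcription factors, 6 fell and 5 rose (median -0.04). ELK4, an ETS factor of the serum response, rose by 0.75, while SRF, its partner factor, was at -0.38 (-0.21 relative to its neighbours) and RPS6KA2, an ERK-activated kinase, at -0.32. RPS6KA2 was not called above 1.2-fold (limma treat adjusted p = 0.236) or with a dispersion of 0.01 (edgeR adjusted p = 0.0653). CIC, a repressor that ERK signalling inactivates, was at -0.56, but at 0.10 relative to its neighbours (limma adjusted p = 0.0146, with their median taken as known).

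Of 17 genes in the list of ERK feedback genes, 9 fell and 7 rose (median -0.13). The list was not limited to genes that ERK induces or that act on ERK alone. DUSP4, a nuclear MAP kinase phosphatase, had 7568 ± 54.3 normalized counts in resistant and 39253 ± 297 in parental cells, with a log2 fold change of -2.37 (SE 0.03). SPRED3 was at -1.30, and at -0.64 relative to its neighbours, and DUSP9 rose by 0.86. SPRY2 fell by 0.81 on the log2 scale, and did not pass relative to its neighbours (-0.04, limma adjusted p = 0.220). DUSP6, named after its values were seen, had 37070 ± 367 in resistant and 28201 ± 97.0 in parental cells. It rose by 0.39 on the log2 scale, where its neighbours had a median of 0.33. Of the 10 genes of a published MAPK activity score, 6 fell and 3 rose (median -0.17). Among them ETV4, an ETS factor, fell to 6094 ± 324 in resistant cells, against 13106 ± 8.78 in parental cells, at -1.11 on the log2 scale and -0.61 relative to its neighbours, and CCND1, the gene of cyclin D1, rose by 0.45. The score itself was not computed. LTO1, on the opposite strand, shares 10.3% of the exonic bases of CCND1.

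For each of the 7 genes the gene with the most similar profile was found among 12896 genes, as the smallest Euclidean distance between log2 values centred on their mean over the 4 libraries. It was PTPRF for HRAS (distance 0.018), SBDSP1 for NRAS (0.0039), RPL31 for ARAF (0.0052), CETN2 for BRAF (0.0019), GTF2B for MAP2K1 (0.0037), NFATC4 for MAP2K2 (0.014) and LRRC56 for MAPK3 (0.0061). With 4 libraries such a match describes little beyond the size of the fold change. PTPRF had a log2 fold change of -1.06 and LRRC56, which is also the neighbour of HRAS, of -0.63.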

How the data were processed

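RNA was enriched for poly(A) and sequenced in 2 resistant and 2 parental libraries, whose groups come from the sample titles. Per the submitters' processing notes, bcl2fastq 2.17, STAR 2.5.2b, featureCounts from Subread 1.5.2, DESeq2 and GRCh38 were used. Neither the gene annotation nor strandedness is stated in those notes. The deposited signal is a normalized count per gene, made by the authors with 1 size factor per library (0.924 and 1.05 in resistant, 1.03 and 1.01 in parental libraries), as the values show. In each library 100% of the values came out as whole reads within a tolerance of 0.01. The lowest mean of a gene was 9.98. The log2 fold changes and p-value columns were deposited by the authors, per the file headers.

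A gene was tested if 2 or more libraries reached 10, which held for 18330 genes. Values were log2-transformed with a pseudocount of 1 and fitted on group with limma 3.58.1 (eBayes with trend) in R 4.3.3. P-values were adjusted by Benjamini-Hochberg over these 18330 genes, and 0.05 was the threshold. Fold changes on this scale understate changes of low genes. Since depth could be recovered, edgeR 4.0.16 and DESeq2 1.42.0 on the recovered reads were alternatives, and edgeR's quasi-likelihood test called 6085 genes higher and 6282 lower, against 6001 and 6270 with limma. The common dispersion was 0.000566. The scripts were tested on simulated data. Ratios of 2 genes were compared with a two-sided exact permutation test over libraries. Positions and lengths came from GENCODE 29 on GRCh38, where 17804 identifiers (96.9%) were found.

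The labels do not say that replicates are separate cultures, so the p-values reflect the spread between these libraries alone, and that spread may be technical. The members and gene lists were chosen with earlier results of these data known. Named were the 7 genes, up to 4 called genes per pathway list with the largest change whose higher group averaged 100 or more, the nearest profile of each of the 7, and the most abundant marker of each other cell type. Further genes were named after their values were seen: the adjacent and overlapping genes, EPCAM, CLDN4, MYOD1, CLDN5, TIE1, CD68, NF1, RAPGEF1, RALGDS, RGL2, DUSP6 and the 14-3-3 genes.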

Additional observations from a re-analysis of the deposited data

How the results depend on the processing

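The 6 falls among the 7 genes were found again in edgeR's quasi-likelihood test, in DESeq2, with a pseudocount of 10, without the filter on low values, after scaling to the same total, after removal of the GC and length trend, relative to chromosomal neighbours, and without any 1 library (6 to 6). Above 1.2-fold, or in edgeR with a dispersion of 0.01, 4 fell. ARAF made 1 higher call with the GC and length trend removed, with that trend and the replicate block together (limma adjusted p = 0.0172), and in 1 of the leave-one-out fits (0 to 1 higher calls). Over 15 alternatives the log2 fold change ran from -0.01 to 0.12 for ARAF, -0.27 to -0.19 for BRAF, -0.33 to -0.10 for MAP2K1 and -1.11 to -0.66 for HRAS. Requiring a change above 1.2-fold gave 24 higher and 53 lower pathway genes, and a dispersion of 0.01 gave 26 and 55, against 43 and 88. Leaving out 1 library gave 37 to 43 higher and 77 to 92 lower pathway genes, and differences of log2 ratios of -0.71 to -0.53 for HRAS to NRAS, 0.23 to 0.34 for ARAF to BRAF and -0.40 to -0.33 for MAP2K2 to MAP2K1. Over all alternatives these ran from -0.71 to -0.11, 0.19 to 0.40 and -0.40 to -0.06, nearest 0 once neighbour medians were removed. Relative to neighbours MAP2K6 (0.72) and CIC (0.10) changed direction, and the cause was not tested. Each limma p given relative to neighbours takes the neighbour median as known. Same-numbered libraries did not deviate together (r = -0.0296 over 18330 genes), and with 2 pairs the numbers give no pairing. With the replicate block 6 genes fell and 0 rose, and the HRAS to NRAS difference stayed at -0.62 (exact p = 0.5, the smallest 2 pairs allow). With 2 libraries a group, no exact permutation test of a ratio could reach 0.05.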
